A study of Mus musculus with 6 samples.

Results

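The genes described are 38 mouse carriers of amino acids and transmitters from 9 families of the solute carrier (SLC) superfamily, chosen by name and measured by RNA sequencing in astrocytes, out of 35127 genes with transcripts in the data. Amino acid carriers move nutrients such as leucine, glutamine, arginine and cystine across the plasma membrane, the lysosome and the mitochondrion. In astrocytes, the star-shaped support cells of the brain, related carriers also clear glutamate, glycine and GABA after they act as transmitters, and pass glutamine back to neurons. Several nutrient carriers are known targets of ATF4, a transcription factor made when cells run short of amino acids, and many of the carriers work as exchangers, so that the import of one amino acid is paid for by the release of another.

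The 3 tumour libraries are of astrocytes isolated from mouse brain bearing a small cell lung cancer (SCLC) allograft, which models brain metastasis of this neuroendocrine cancer. The 3 sham libraries are of control astrocytes after a sham injection. Strain, age, the graft's cell line, the way the astrocytes were isolated and the animals behind each library are not stated in the labels, so the p-values rest on the spread among these libraries alone, and that spread may be technical. Totals were 24524764 to 25800897 estimated reads in tumour libraries and 22133723 to 23328811 in sham libraries.

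The libraries did not spread evenly. Tumour libraries 1 to 3 lay close together, with a root mean square log2 difference of 0.226 to 0.24 between pairs over the tested genes, and so did sham libraries 1 and 2 (0.233). Sham 3 stood apart from sham 1 and 2 by 0.643 to 0.65, farther than the tumour libraries stood from the sham libraries (0.6 to 0.621). The astrocyte label was borne out in part: all 14 astrocyte markers listed were above 1 CPM (reads scaled to the library total) in at least 1 library, with a summed level of 6206 to 6298 CPM in tumour libraries and 4988 to 8071 CPM in sham libraries. That list includes the carriers Slc1a2 and Slc1a3. Of the 14 markers 2 were called higher (Aldh1l1 and Slc4a4) and 3 lower (Gja1, Gjb6 and Kcnj10). That is 14.3% and 21.4%, beside 10.5% and 10.4% of all tested genes, and none of these calls held with each library left out. Reads of mitochondrial genes made up 4.05% to 4.23% of tumour libraries, 6.66% and 6.2% of sham 1 and 2, and 4.2% of sham 3. Markers of other cell types were present beside those of astrocytes. Of 13 neuron markers 7 exceeded 5 CPM in at least 1 library and 4 stayed below 1 CPM, with Rbfox3 and Slc17a6 at 0 and Stmn2 at 88 to 95.9 CPM in tumour libraries and 76.7 to 136 CPM in sham libraries. Of the 9 tested, Gad1 was called higher and Tubb3 lower (11.1% each, beside 10.5% and 10.4% of all tested genes). The call of Gad1 held with each library left out, and that of Tubb3 ended without any 1 tumour library (edgeR adjusted p up to 0.0833). The 10 endothelial markers, of which 7 exceeded 5 CPM and Cldn5 was at 0, summed to 771 to 783 CPM in tumour libraries and 667 to 876 CPM in sham libraries. The 11 oligodendrocyte markers, of which 4 stayed below 1 CPM, summed to 1013 to 1043 CPM in tumour libraries and 912 to 1142 CPM in sham libraries. The 13 microglia and macrophage markers summed to 133 to 138 CPM in tumour libraries and 96.8 to 123 CPM in sham libraries, with 7 below 1 CPM in every library. Of the 8 tested, Cd68 was called higher (12.5%, beside 10.5% of all tested genes), and this call held with each library left out in turn. Fibroblast and mural genes were plentiful, at a summed 4504 to 4563 CPM over 11 genes in tumour libraries, whereas sham 1 and 2 had 4749 and 4762 CPM and sham 3 had 7454 CPM. Of 8 tested endothelial markers Kdr was called lower (12.5%). Of 9 tested fibroblast and mural genes Col3a1 was called lower and Pdgfra higher (11.1% each). Both shares are near the 10.5% higher and 10.4% lower of all tested genes. The calls of Kdr and Col3a1 held with each library left out, whereas that of Pdgfra held in 2 of 6 such fits. Of the 13 listed genes of neuroendocrine SCLC 5 exceeded 5 CPM in at least 1 library and 6 stayed below 1 CPM. All 13 summed to 134 to 139 CPM in tumour libraries and 116 to 165 CPM in sham libraries, with Chga at 0 in all tumour libraries. The part of these other cell types and of the mitochondrial share in the results was not tested, and in bulk RNA fewer cells of a type cannot be told apart from less RNA per cell.

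The cystine and glutamate exchanger gene Slc7a11, the carrier with one of the largest rises, holds a pair of facing ATF4 elements just before its start, and this stretch is shown first. The part of ATF4 in the levels of the carriers was not tested. Slc7a7, a carrier of cationic and neutral amino acids that was near the detection limit, is the other member with such an element, and it is shown for comparison. Both are read 5′ to 3′ on the minus strand from RefSeq's promoter windows (GRCm38.p6), and capitals mark the ATF4 composite element TGATGNAA on either strand. The first lies at chr3:50443614-50443719, bases 106 to 1 before the annotated start of Slc7a11, and the second at chr14:54418038-54418125, bases 181 to 94 before a start of Slc7a7. Slc7a7 has a further match not shown, TGATGCAA, 243 to 236 bases before another of its annotated starts.
Slc7a11: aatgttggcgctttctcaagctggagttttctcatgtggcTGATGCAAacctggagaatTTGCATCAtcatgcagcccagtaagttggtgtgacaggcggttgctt
Slc7a7: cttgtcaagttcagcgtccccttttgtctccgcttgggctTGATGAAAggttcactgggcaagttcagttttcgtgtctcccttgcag
In Slc7a11 the elements lie 66 to 59 and 47 to 40 bases before the start, on opposite strands. TGATGNAA occurred within the 250 bases before a start in 2 of the 29 carriers with a promoter entry, and in 3.91% of all 27025 genes with one. Of the 7 carriers that rose and have an entry, 1 held it (Slc7a11). No entry was found for Slc1a5, Slc6a6, Slc6a15, Slc7a2, Slc7a3, Slc7a5, Slc36a2, Slc38a1 and Slc38a3. A match is a description of the letters and not evidence of binding.

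Further motifs were searched on both strands. A gene was counted for any motif when at least 1 of its promoter windows held it. The 29 carriers had 44 windows and all 27025 genes had 32851, so more sequence was searched per carrier and the shares are not on equal terms. The core of the hypoxia response element, ACGTG or GCGTG, was present in 18 of 29 carriers and in 41.5% of all genes, and 5 of the 7 carriers that rose and have an entry held it (1 with ACGTG, 4 with GCGTG). The antioxidant response element TGACNNNGC was present in 6 of 29 carriers, among them Slc7a1 and Slc6a9, and in 11.5% of all genes. The E-box CACGTG, which contains ACGTG, was present in 5 of 29 carriers and in 6.86% of all genes, and in none of the 7 that rose.

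Of the 38 carriers, 34 had enough reads to be tested. Of these, 9 were higher and 1 was lower in tumour libraries than in sham libraries by edgeR's quasi-likelihood test, at a Benjamini-Hochberg adjusted p under 0.05 over 14359 genes. Across all tested genes 10.5% were called higher and 10.4% lower, beside 26.5% and 2.94% of the carriers. The carriers were chosen with earlier results of these data known. These shares, and the share of carriers without overlap given below, therefore only describe the list, and an excess over all genes was not tested. The carriers that rose were Slc3a2, Slc7a5, Slc7a11, Slc7a1, Slc7a3, Slc1a4, Slc6a9, Slc6a17 and Slc15a4, and the one that fell was Slc6a6. The median log2 fold change, tumour over sham, was 0.17 over the 34 carriers and -0.02 over all tested genes. In 21 of the 34 carriers, or 61.8%, no tumour value fell inside the range of the sham values and all lay above it or all below it, which held for 44.1% of all tested genes. In total 20.9% of tested genes were called in either direction.

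How many carriers were called depended on the libraries and the tool. Without sham 3, 15 of 35 carriers were called higher and 10 lower, in a fit that called 29.1% of all genes higher and 28.6% lower. Without any 1 of the tumour libraries, 4 or 5 carriers were called higher and 0 lower by edgeR, with 1 to 3 lower at an unadjusted p below 0.05. Those 3 fits called 3.73%, 3.69% and 3.7% of all genes higher and 2.44%, 2.64% and 2.6% lower. Without sham 1 there were 5 higher calls (5.83% of all genes) and without sham 2 there were 6 (5.65%), and in both fits 0 carriers were called lower, where 5.2% and 4.75% of all genes were and 2 and 4 carriers had an unadjusted p below 0.05 on that side. DESeq2 called 10 carriers higher and 3 lower (13.6% and 13.7% of all genes), and limma-voom 9 higher and 1 lower (11.4% and 10.2%). With offsets for transcript length 7 were higher and 1 lower (7.49% and 6.75% of all genes). When the near libraries were added together, leaving 1 tumour and 2 sham values, edgeR called 0 carriers and 0.0% of all genes, and 5 carriers, all higher, had an unadjusted p below 0.05. The calls of Slc1a4, Slc3a2, Slc7a5 and Slc7a11 passed in all of these fits except the last.

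**Figure D1:**
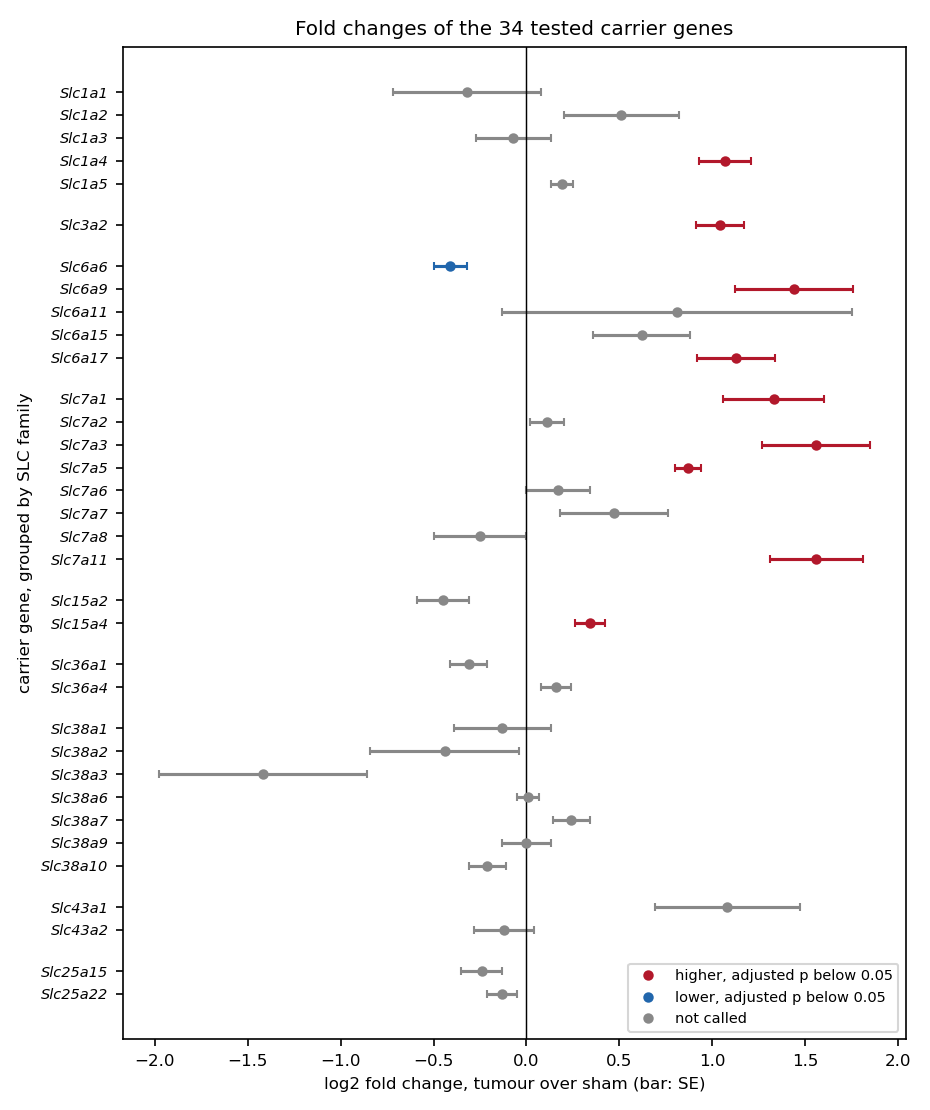
Log2 fold change of each tested carrier gene, tumour over sham, with its standard error as a bar, grouped by SLC family and coloured by the edgeR call. The Slc7 genes lie at or above 0 except Slc7a8 (-0.25), while the Slc38 genes lie at or below 0.24.

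Slc3a2 encodes the heavy chain that carries the Slc7 exchangers to the cell surface, and it was the most abundant of all 38 carriers per transcript length in tumour libraries. It stood at 547, 546 and 562 CPM in tumour libraries 1 to 3, against 287, 296 and 224 CPM in sham libraries 1 to 3 (gene at chr19:8706882-8723369, minus strand, GENCODE M21 on GRCm38). Every tumour value was above every sham value, and sham 3 lay farthest from the tumour libraries. The log2 fold change was 1.04 (SE 0.13, edgeR adjusted p = 0.0037). On TPM, the measure scaled by transcript length, Slc3a2 averaged 487 ± 9.8 TPM in tumour libraries and 242 ± 22.8 TPM in sham libraries (SD, n = 3 each).

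Among the light chains that pair with Slc3a2, the leucine and glutamine exchanger gene Slc7a5, known as LAT1 and located at chr8:121881150-121907694 on the minus strand, also rose. It had 142, 144 and 144 CPM in tumour libraries, against 79.7, 82.9 and 72.6 CPM in sham libraries. The groups were far apart and sham 3 was close to the other sham libraries. This came to a log2 fold change of 0.87 with an SE of 0.07 (edgeR adjusted p = 0.000915), the smallest adjusted p among the carriers.

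Slc7a11 exports glutamate in return for cystine, the precursor that limits glutathione synthesis, and its gene spans chr3:49892526-50443614. It had 33, 40.1 and 38.7 CPM in tumour libraries, against 10.2, 9.73 and 18 CPM in sham libraries. The groups did not overlap, and here sham 3 was the sham library nearest to the tumour level. On the log2 scale the fold change was 1.56 (SE 0.25, edgeR adjusted p = 0.00867). With 1 library left out the adjusted p reached 0.0489, just inside the threshold, in the fit without tumour library 2.

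The other partners of Slc3a2 were not called. Slc7a6, an exchanger of cationic for neutral amino acids, averaged 33.4 ± 2.71 CPM in tumour libraries and 29.8 ± 7.03 CPM in sham libraries. Slc7a8, the related exchanger LAT2, averaged 13.9 ± 1.67 CPM in tumour libraries and 16.6 ± 6.1 CPM in sham libraries, of which sham 3 was highest at 23.7 CPM. Without sham 3, Slc7a6 was called at a log2 fold change of 0.38 (edgeR adjusted p = 9.63e-05), against 0.17 with all libraries, 0.08 without sham 1 and 0.06 without sham 2. Slc7a8 had a log2 fold change of -0.25 with all libraries and 0.09 without sham 3, called in neither fit. Slc7a7 lay between 0.748 and 1.41 CPM in all libraries, and 232 of its exon bases overlap those of Oxa1l on the opposite strand. Slc7a10, the exchanger Asc-1 that moves D-serine and other small neutral amino acids, had 3, 0 and 0 reads in tumour libraries and 1, 3 and 0 reads in sham libraries and was not tested. Summed over these 6 partner genes, the level was 101, 94.2 and 94.7 TPM in tumour libraries, against 56.5, 61.9 and 63.2 TPM in sham libraries. Slc7a5 made up 65.5 ± 2.64% of that sum in tumour libraries and 56.3 ± 5.07% in sham libraries. The heavy chain gene stood at 5.05 ± 0.16 times the partner sum in tumour libraries and 4.01 ± 0.456 times in sham libraries.

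The cationic carriers of Slc7 work without Slc3a2 and bring in arginine, lysine and ornithine. Slc7a1 (CAT1) had 105, 102 and 104 CPM in tumour libraries, against 32.7, 29.9 and 61.4 CPM in sham libraries. Its tumour values stood clear of all sham values, of which sham 3 was about midway. The log2 fold change was 1.33 (SE 0.27, edgeR adjusted p = 0.0188), and the call ended when any library other than sham 3 was left out, with adjusted p of 0.0536 to 0.0783 and log2 fold changes of 1.13 to 1.34.

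Slc7a3 (CAT3) was scarce, at 5.01, 4.73 and 2.88 CPM in tumour libraries and 1.72, 1.29 and 1.27 CPM in sham libraries. Tumour library 3 was the lowest of its group but still above the sham libraries. Its log2 fold change was 1.56 (SE 0.29, edgeR adjusted p = 0.0144), lost without tumour library 1 (adjusted p = 0.0712), tumour library 2 (0.0709) or sham 2 (0.0566). Slc7a2 (CAT2) was the most abundant of these 3 genes per length at 80.8 ± 1.05 TPM in tumour libraries and 70.9 ± 1.82 TPM in sham libraries (SD, n = 3 each), and its log2 fold change by counts was 0.11 (SE 0.09, edgeR adjusted p = 0.405). In all, 2 of the 3 cationic carriers were called higher with all libraries, beside 10.5% of all tested genes, and neither call held with each library left out.

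**Figure D2:**
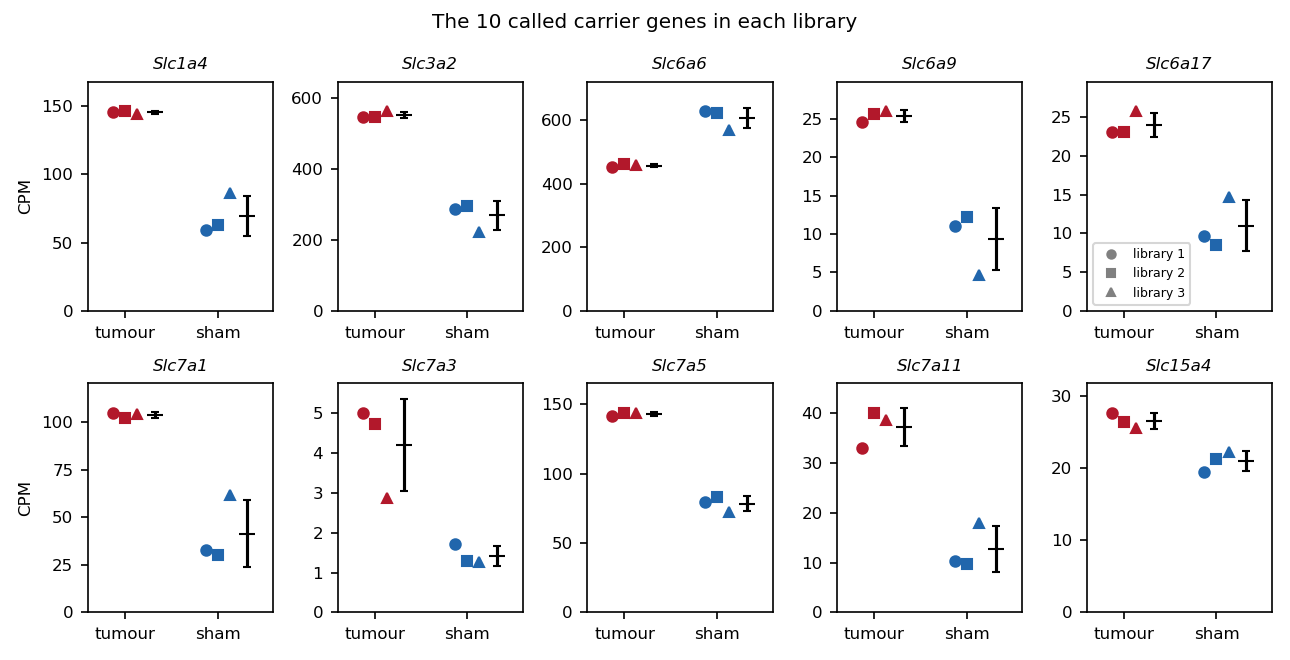
CPM of the 10 called carrier genes in each tumour (left) and sham (right) library, with symbols for library number and the mean and SD of each group beside the points. In each panel the groups do not overlap, and sham 3 (triangle) lies toward the tumour level for Slc1a4, Slc6a17, Slc7a1 and Slc7a11 but away from it for Slc3a2 and Slc6a9.

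The Slc1 family holds neutral amino acid carriers beside the glutamate carriers. Slc1a4 (ASCT1), which moves serine, alanine, cysteine and threonine and lies at chr11:20302180-20332713, had 145, 146 and 144 CPM in tumour libraries, against 59.5, 62.9 and 86.1 CPM in sham libraries. The groups did not overlap and sham 3 was the sham library nearest to the tumour libraries. Slc1a4 thus had a log2 fold change of 1.07 with an SE of 0.14 (edgeR adjusted p = 0.00503). Slc1a5 (ASCT2), a carrier of glutamine and other neutral amino acids, had 71.7 ± 2.97 CPM in tumour libraries and 63 ± 2.79 CPM in sham libraries (SD, n = 3 each). Its log2 fold change of 0.19 (SE 0.06) did not pass the threshold (edgeR adjusted p = 0.0838), and it was called at 0.22 without sham 3 (adjusted p = 0.000443).

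None of the glutamate uptake carriers passed the edgeR test. Slc1a2 (GLT-1), the main glutamate carrier of the adult forebrain, had 316, 325 and 307 CPM in tumour libraries, against 269, 277 and 118 CPM in sham libraries. The tumour values were above all sham values, and sham 3 was by far the lowest library. The log2 fold change was 0.51 (SE 0.31, edgeR adjusted p = 0.279), and 0.21 without sham 3, where it was called (adjusted p = 6.66e-07). Slc1a3 (GLAST), the glial carrier that appears first in development, had 325, 329 and 311 CPM in tumour libraries, against 379.7, 397 and 234 CPM in sham libraries. The tumour values fell between sham 3 and the other sham libraries, and the log2 fold change was -0.07 (SE 0.20, edgeR adjusted p = 0.841). Without sham 3 it was called at -0.27 (adjusted p = 1.69e-09), and without sham 1 or sham 2 it was 0.02 and 0.06 and not called.

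Slc1a1 (EAAT3), a mainly neuronal glutamate and cysteine carrier, had 1.12, 1.52 and 1.66 CPM in tumour libraries, against 2.46, 1.95 and 0.953 CPM in sham libraries. The groups overlapped (edgeR adjusted p = 0.609 for a log2 fold change of -0.32, SE 0.40), and 2631 of its exon bases overlap a gene on the opposite strand of similar abundance, so its level is uncertain. Over all 3 genes, limma-voom and DESeq2 called none either, and 0 had an unadjusted p below 0.05 in the edgeR fit. Of all tested genes edgeR called 10.5% higher and 10.4% lower.

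Carriers of the Slc6 family use the sodium and chloride gradients. Slc6a9 (GlyT1), which clears glycine around synapses, had 24.5, 25.6 and 25.9 CPM in tumour libraries, against 11, 12.2 and 4.72 CPM in sham libraries. All tumour values were above the sham values, and sham 3 was the lowest library. On the log2 scale the fold change was 1.44 (SE 0.32, edgeR adjusted p = 0.0252). The call ended without any 1 of the tumour libraries (adjusted p = 0.0901 to 0.0949) and without sham 1 (0.0571), and 1429 of its exon bases overlap Ccdc24, a gene of low level on the other strand.

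Slc6a17 (NTT4), a vesicular carrier of neutral amino acids known from neurons, had 23, 23.1 and 25.7 CPM in tumour libraries, against 9.68, 8.52 and 14.7 CPM in sham libraries. The groups did not overlap. Its log2 fold change was 1.13 (SE 0.21, edgeR adjusted p = 0.0135), lost without any 1 of the tumour libraries (adjusted p = 0.0607 to 0.0678) and without sham 1 (0.0527). With transcript length offsets it was 0.74 (adjusted p = 0.0542). Neuronal markers summed to 208 to 213 CPM in tumour libraries, whereas sham 1 and 2 had 158 and 159 CPM and sham 3 had 249 CPM. Of the 13 markers 4 were below 1 CPM in every library. Among the 9 tested, Gad1 was called higher and Tubb3 lower (11.1% each, beside 10.5% and 10.4% of all tested genes). The part of these markers in this result was not tested.

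Slc6a6 (TauT), the carrier of the osmolyte taurine, was the one carrier that fell. It had 451, 461 and 458 CPM in tumour libraries, against 627, 624 and 569 CPM in sham libraries. All 3 sham values were above the tumour values, by a modest margin. This was a log2 fold change of -0.41 with an SE of 0.09 (edgeR adjusted p = 0.0208), and the call was lost without any 1 library other than sham 3, with adjusted p of 0.0721 to 0.112 and log2 fold changes of -0.42 to -0.39.

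The remaining Slc6 carriers were not called. Slc6a15, a neuronal carrier of branched-chain amino acids and proline, averaged 60.7 ± 2.53 CPM in tumour libraries and 39.4 ± 13.8 CPM in sham libraries (edgeR adjusted p = 0.135 for a log2 fold change of 0.62, SE 0.26). Without sham 3 Slc6a15 was called at 0.36 (adjusted p = 2.05e-06). Slc6a11, the GABA carrier of mature astrocytes, was close to absent, with 13, 11 and 4 reads in tumour libraries and 5, 10 and 0 reads in sham libraries. At this depth a difference in Slc6a11 could hardly be detected, since 3 reads correspond to 0.118 to 0.136 CPM.

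The Slc38 family holds the sodium-coupled neutral carriers that load astrocytes and neurons with glutamine or release it. Of 9 genes 7 were tested and edgeR and limma-voom each called 0 and DESeq2 called 1, and 2 had an unadjusted edgeR p below 0.05. Of all tested genes edgeR called 10.5% higher and 10.4% lower, limma-voom 11.4% and 10.2%, and DESeq2 13.6% and 13.7%. A low count among 7 genes thus says little about the family. Slc38a2 (SNAT2), a carrier induced by amino acid shortage in many cells, had 909, 903 and 911 CPM in tumour libraries, against 1601, 1573 and 526 CPM in sham libraries. Slc38a1 (SNAT1) had 413, 412 and 419 CPM in tumour libraries, against 541, 546 and 272 CPM in sham libraries. In both genes the tumour libraries lay between sham 3 and the other sham libraries. The log2 fold changes were -0.44 (SE 0.40, edgeR adjusted p = 0.468) for Slc38a2 and -0.13 (SE 0.26, edgeR adjusted p = 0.766) for Slc38a1. Without sham 3 they were called at -0.81 and -0.39 (adjusted p = 2.64e-25 and 1.16e-14), and the sign of Slc38a1 turned without sham 1 (0.02) or sham 2 (0.03).

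Slc38a3 (SNAT3), through which astrocytes release glutamine, showed the widest gap between sham libraries. It had 21, 20.3 and 22.6 CPM in tumour libraries, against 76.9, 78.8 and 14.9 CPM in sham libraries. Only sham 1 and 2 stood above the tumour libraries, and sham 3 stood below them. The log2 fold change of -1.42 (SE 0.56) did not pass in edgeR (adjusted p = 0.124) but did in DESeq2 (adjusted p = 0.0248), and without sham 3 it was -1.87 (edgeR adjusted p = 3.68e-24).

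The other Slc38 genes had smaller differences. Slc38a10 averaged 154 ± 1.37 CPM in tumour libraries and 178 ± 22.4 CPM in sham libraries, and Slc38a6 82.6 ± 0.256 CPM in tumour libraries and 81.8 ± 3.01 CPM in sham libraries. The lysosomal glutamine carrier gene Slc38a7 averaged 32.7 ± 3.02 CPM in tumour libraries and 27.7 ± 1.8 CPM in sham libraries. Slc38a9, the lysosomal arginine sensor of the mTORC1 growth pathway, averaged 11.4 ± 0.834 CPM in tumour libraries and 11.4 ± 1.29 CPM in sham libraries. Without sham 3, Slc38a7 was called at a log2 fold change of 0.28 and Slc38a10 at -0.11 (edgeR adjusted p = 0.00288 and 0.00908). Slc38a4 (SNAT4; 8, 13 and 16 reads in tumour libraries, 0, 9 and 4 in sham libraries) and Slc38a5 (SNAT5; at most 3 reads in any library) were too low to test. Summed over the 9 genes the level was 575, 565 and 573 TPM in tumour libraries, against 855, 863 and 407 TPM in sham libraries.

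The Slc43 genes encode facilitative carriers of large neutral amino acids. Slc43a1 (LAT3) had 10.3, 11.1 and 11 CPM in tumour libraries, against 6.2, 6.9 and 2.18 CPM in sham libraries. The groups did not overlap, yet the log2 fold change of 1.08 (SE 0.39) did not pass in edgeR (adjusted p = 0.0968), while DESeq2 called it (adjusted p = 0.0314). Without sham 3 it was called at 0.71 (edgeR adjusted p = 2.56e-05). Slc43a2 (LAT4) averaged 26.2 ± 1.37 CPM in tumour libraries and 28.3 ± 5.98 CPM in sham libraries, and was called at -0.28 without sham 3 (adjusted p = 0.00166) against -0.12 with all libraries.

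**Figure D3:**
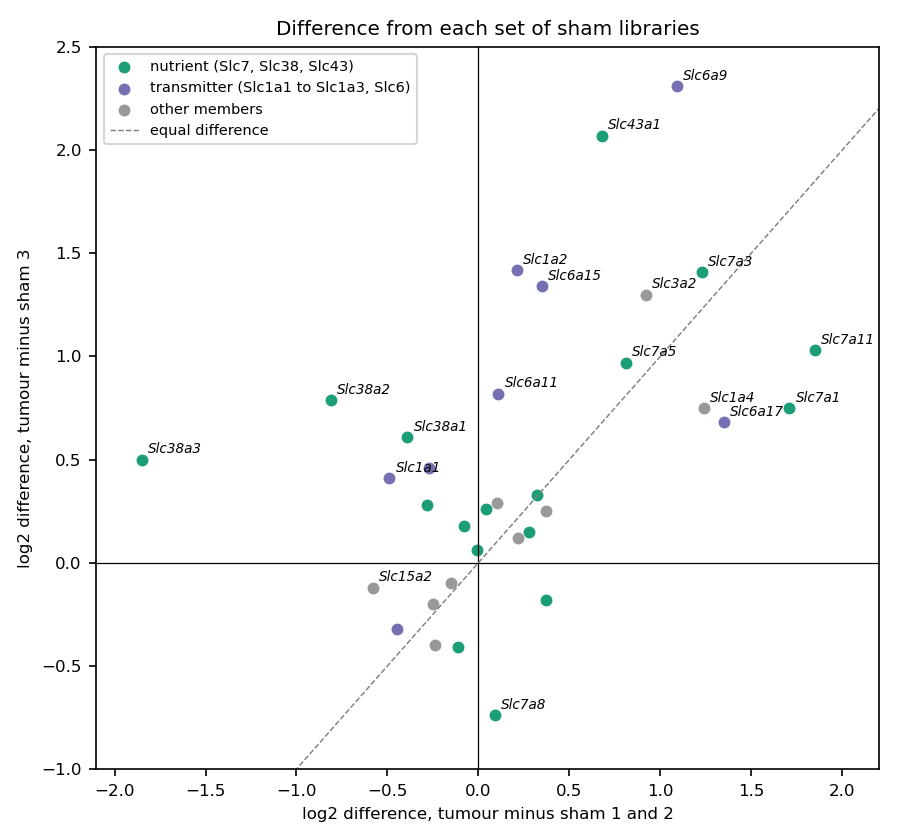
Log2 difference of each tested carrier gene between the mean of the tumour libraries and the mean of sham 1 and 2 (horizontal) or sham 3 (vertical), with 0.5 CPM added, coloured by class. Genes in the upper right, such as Slc7a11, Slc7a1, Slc6a9 and Slc3a2, were higher than both sets, while Slc38a1, Slc38a2 and Slc38a3 in the upper left were lower than sham 1 and 2 and higher than sham 3.

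Peptide, proton-coupled and mitochondrial carriers had small differences. Slc15a4, a lysosomal carrier of histidine and small peptides, rose slightly, with 27.7, 26.5 and 25.6 CPM in tumour libraries, against 19.4, 21.4 and 22.2 CPM in sham libraries. The groups were separate but near each other. Its log2 fold change of 0.34 with an SE of 0.08 (edgeR adjusted p = 0.0334) was lost without any 1 library other than sham 3 (adjusted p = 0.0924 to 0.133), without a filter on low counts (0.0509) and with length offsets (0.297).

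Slc15a2, the peptide carrier PEPT2, had 21.1, 19.9 and 18.9 CPM in tumour libraries, against 29.7, 30.5 and 21.7 CPM in sham libraries (edgeR adjusted p = 0.0668 for a log2 fold change of -0.45, SE 0.14; DESeq2 adjusted p = 0.0344). Slc36a1, a proton-coupled carrier found on lysosomes, averaged 16.6 ± 0.847 CPM in tumour libraries and 20.5 ± 1.7 CPM in sham libraries. Slc36a4 averaged 47.8 ± 3.06 CPM in tumour libraries and 42.6 ± 3.23 CPM in sham libraries, and Slc36a2 had at most 11 reads in any library and was not tested. Of the mitochondrial carriers, Slc25a15 for ornithine averaged 13.4 ± 0.918 CPM in tumour libraries and 15.9 ± 1.54 CPM in sham libraries. Slc25a22 for glutamate averaged 30.8 ± 0.876 CPM in tumour libraries and 33.7 ± 2.82 CPM in sham libraries. None of these 5 tested genes was called by edgeR or limma-voom, Slc15a2 alone was called by DESeq2, and 2 of them, Slc15a2 and Slc36a1, had an unadjusted p below 0.05. Of all tested genes edgeR called 10.5% higher and 10.4% lower. Without sham 3, edgeR called Slc15a2 at -0.59 (adjusted p = 1.07e-07), Slc36a1 at -0.25 (0.0206) and Slc25a15 at -0.26 (0.0345).

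The nutrient carriers (Slc7, Slc38 and Slc43) were then set beside the transmitter carriers (Slc1a1 to Slc1a3 and Slc6). Of 20 nutrient carriers 17 were tested, of which 4 rose and 0 fell by edgeR, with 1 at an unadjusted p below 0.05 on the lower side and 1 called lower by DESeq2 (Slc38a3). Of the 8 transmitter carriers, all tested, 2 rose and 1 fell. Of all tested genes 10.5% were called higher and 10.4% lower. Without sham 3 the counts were 7 higher and 5 lower of 18 nutrient carriers and 4 higher and 2 lower of 8 transmitter carriers, where 29.1% of all genes were called higher and 28.6% lower. The median log2 fold change was 0.11 for the nutrient carriers and 0.57 for the transmitter carriers, beside -0.02 for all tested genes. The difference between the classes was not tested. The transmitter class was set by family, so it includes Slc6a15 and Slc6a17, described above as amino acid carriers. Slc6a17 is 1 of the 2 transmitter carriers that rose. The class also includes Slc6a11 (log2 fold change 0.81), which was close to absent. Without sham 3 the medians were 0.18 for the nutrient and 0.23 for the transmitter carriers. The median log2 difference of sham 3 from the averaged sham 1 and 2 was -0.82 over the transmitter carriers and -0.16 over the nutrient carriers. Within the nutrient class 4 of 8 tested Slc7 genes rose (median log2 fold change 0.67) and 0 of 7 Slc38 genes did (median -0.13). In 7 carriers (Slc1a1, Slc1a3, Slc7a6, Slc38a1, Slc38a2, Slc38a3 and Slc43a2) the tumour libraries lay between sham 3 on one side and sham 1 and 2 on the other.

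Levels per length differed over several orders of magnitude between carriers. In the tumour libraries the highest were Slc3a2 (487 ± 9.8 TPM), Slc38a2 (334 ± 4.16 TPM), Slc6a6 (119 ± 2.13 TPM), Slc1a3 (117 ± 1.97 TPM) and Slc38a1 (102 ± 3.34 TPM). In the sham libraries Slc38a2 came first at 441 ± 214 TPM and Slc3a2 second at 242 ± 22.8 TPM, a difference smaller than the spread of Slc38a2. Slc7a5 was the seventh carrier in order in tumour libraries, at 63.2 ± 0.689 TPM, and the twelfth in sham libraries, at 34 ± 2.48 TPM. Slc1a2 stood at 55.3 ± 3.11 TPM in tumour libraries and 39.5 ± 11.8 TPM in sham libraries, below Slc1a3 in each group, and 14.9% to 34.3% of its TPM was assigned to a noncoding transcript of 342 bases. All 38 carriers together summed to 1791 to 1828 TPM in tumour libraries, against 1757 and 1821 TPM in sham 1 and 2 and 1215 TPM in sham 3.

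**Figure D4:**
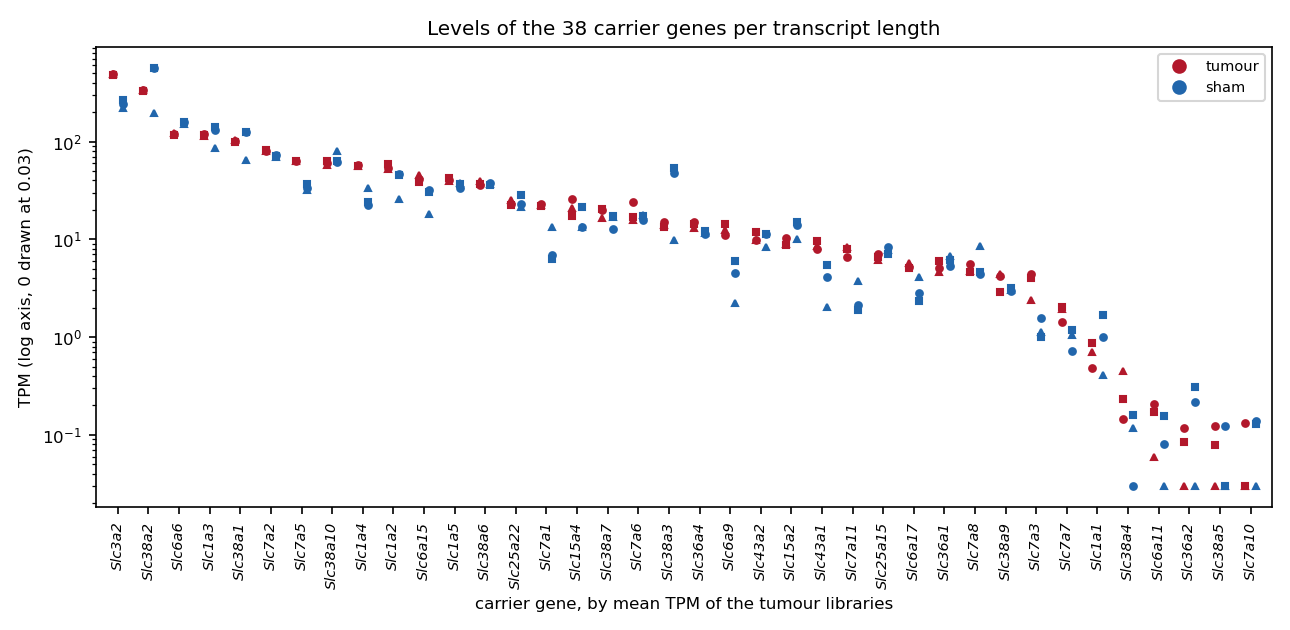
TPM of the 38 carrier genes in each library on a log axis, ordered by the mean of the tumour libraries, with symbols for library number. Slc3a2 leads in tumour libraries, the 3 sham points of Slc38a2 and Slc38a3 are split, and Slc38a4, Slc6a11, Slc36a2, Slc38a5 and Slc7a10 are the lowest, with values of 0 drawn at the bottom.

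Other genes of amino acid transport and use were read from lists chosen with earlier results of these data known. Among 42 further amino acid and transmitter carriers, 19 were tested, 1 rose and 2 fell (5.26% and 10.5%, beside 10.5% and 10.4% of all tested genes), with a median log2 fold change of -0.07. Slc43a3, a nucleobase carrier, rose to 35.9 ± 1.34 CPM in tumour libraries, against 13.3 ± 2.05 CPM in sham libraries (edgeR adjusted p = 0.00123 for a log2 fold change of 1.44, SE 0.12). The mitochondrial aspartate and glutamate carrier Slc25a12 fell by 0.35 on the log2 scale, and the GABA carrier Slc6a13 by 2.83 at under 3 CPM, with edgeR adjusted p of 0.00841 and 0.0157. The call of Slc25a12 ended without any 1 tumour library (adjusted p up to 0.0571), and that of Slc6a13 without any 1 library other than sham 3 (up to 0.0806).

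Of 35 tested enzymes that make or break down amino acids and transmitters, 10 rose and 2 fell (28.6% and 5.71%, beside 10.5% and 10.4% of all tested genes), with a median log2 fold change of 0.08. Named by smallest p, Gad1, which makes GABA, averaged 6.33 ± 0.38 CPM in tumour libraries and 1.94 ± 0.158 CPM in sham libraries. Gad1 is also on the list of neuron markers. The mitochondrial serine enzyme gene Shmt2 averaged 70.8 ± 1.02 CPM in tumour libraries and 32.6 ± 5.35 CPM in sham libraries. Cdo1, which oxidises cysteine on the way to taurine, averaged 166 ± 6.79 CPM in tumour libraries and 75.1 ± 12.5 CPM in sham libraries. Bcat2, the mitochondrial branched-chain transaminase, averaged 58.2 ± 2.05 CPM in tumour libraries and 38.1 ± 3.1 CPM in sham libraries. These 4 calls held with each library left out in turn, as did that of the glutaminase gene Gls2. The calls of Asns, Gclc and Ass1, which were higher, and of Aspa and Csad, which were lower, each ended without any 1 library other than sham 3 (edgeR adjusted p up to 0.135). Cth lost its call without any 1 tumour library (up to 0.0645) and Cbs without tumour library 1 or 3 (up to 0.0612). These 8 genes are named after their values were seen.

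Of 17 genes of the ATF4 response, all tested, 8 rose (47.1%, beside 10.5% of all tested genes) and the other 9 were not called, with a median log2 fold change of 0.34. The pseudokinase gene Trib3 averaged 26.5 ± 1.58 CPM in tumour libraries and 1.92 ± 0.268 CPM in sham libraries, and Chac1, a glutathione-degrading enzyme, 22.9 ± 2.59 CPM in tumour libraries and 3.17 ± 0.488 CPM in sham libraries. Cebpb (log2 fold change 0.90) and Ddit3 (1.39) rose as well, and these 4 calls held with each library left out. Of the other called genes, named after their values were seen, Atf4 and Atf5 held in these fits too. The call of Cebpg ended without any 1 library other than sham 3 (edgeR adjusted p up to 0.159). Atf4 itself, named after its values were seen, had 232, 233 and 241 CPM in tumour libraries, against 131, 126 and 93.8 CPM in sham libraries. Atf4 in sham 3 was thus the lowest, as for Slc3a2 and Slc7a5, whereas Slc7a11, Slc7a1 and Slc1a4 were higher in sham 3 than in sham 1 and 2. This comparison rests on 1 sham library, and a link between Atf4 and the level of any carrier was not tested.

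Of 25 tested genes through which the lysosome reports amino acids to mTORC1, 3 were higher and 3 lower, 12% each, which is near the 10.5% and 10.4% of all tested genes. Their median log2 fold change was -0.05. The folliculin partners Fnip1 (log2 fold change 0.57) and Fnip2 (0.98) and folliculin itself, Flcn (0.37), rose, while the scaffold gene Lamtor4 fell by 0.51 on the log2 scale. Of these 4 calls that of Fnip1 held with each library left out. Flcn lost its call without tumour library 1, tumour library 3 or sham 1 (edgeR adjusted p up to 0.0692), Lamtor4 without any 1 tumour library (up to 0.0776) and Fnip2 without any 1 library other than sham 3 (up to 0.0838).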

How the data were processed

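Total RNA of 6 samples was sequenced on an Illumina platform, per the labels' protocols, and groups and replicate numbers come from the sample titles. The submitters' processing notes name Salmon 0.8.2, DESeq2 1.28.1 and the build mm10. The authors deposited estimated counts and TPM for each of 113116 transcripts, with length and effective length in bases, per the file headers. The labels state neither kit, strandedness nor read length.

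Transcripts were matched to GENCODE M21 (GRCm38) by identifier without version (112841 matched; the other 275 were left out), and the estimated counts of a gene's transcripts were added up and then rounded. edgeR 4.0.16 (R 4.3.3) used TMM, filterByExpr (minimum count 10, total 15) and a robust quasi-likelihood fit of all 6 samples on group alone, with Benjamini-Hochberg adjustment and a threshold of 0.05. Each SE was taken from the fold change (log2, unsigned) over the root of its F statistic. CPM uses TMM library sizes. Deposited TPM was summed per gene for levels between genes, and it moves with how Salmon divides reads among transcripts. Simulated counts were used to test the fits. Alternatives were DESeq2 1.42.0, limma-voom (limma 3.58.1), other size factors, no filter, length offsets, a replicate block, summed near libraries and each library left out.

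All 38 members are named. From the lists of other carriers, enzymes, the ATF4 response and mTORC1, up to 4 called genes with the smallest p are named. Further enzyme and ATF4 response genes were named after their values were seen. Of the cell type markers all called genes are named, and some uncalled ones are named for their levels. Members and lists were chosen with earlier results of these data known.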

Additional observations from a re-analysis of the deposited data

How the results depend on the processing

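Of the 10 called carriers, 4 (Slc1a4, Slc3a2, Slc7a5 and Slc7a11) passed in every alternative except the one with near libraries summed. In that one edgeR called 0 carriers higher or lower, 0 nutrient and 0 transmitter carriers in either direction, and 0 of all genes (fewer samples were fitted). Leaving out 1 library gave 4 to 15 carriers called higher and 0 to 10 lower, 2 to 7 nutrient carriers higher and 0 to 5 lower, and 0 to 4 transmitter carriers higher and 0 to 2 lower. The transmitter median ranged from 0.23 to 0.73 and the nutrient median from 0.10 to 0.18. Over all genes these fits called 536 to 4250 higher and 355 to 4179 lower. Each upper limit of a count came from the fit without sham 3. DESeq2 called 3 carriers lower, among them 1 nutrient carrier. With length offsets 1 transmitter carrier was called higher, and 969 of all genes lower.

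Same-numbered libraries did not deviate together (correlations of 0.016, -0.016 and 0.0081). In the fit with a replicate block, 7 carriers were called higher and 0 lower, 1 transmitter carrier higher and 0 lower, and 829 of all genes higher and 607 lower. Signs turned for 5 carriers not called with all libraries: Slc38a6 (-0.01 with length offsets, -0.01 to 0.04 with a library left out), Slc1a3 (0.04 with near libraries summed, -0.27 to 0.06), Slc38a1 (0.02, -0.39 to 0.03), Slc7a8 (-0.25 with all libraries, -0.41 to 0.09 with a library left out) and Slc38a9 (0.00 with all libraries, 0.30 with length offsets, -0.09 to 0.07 with a library left out). The cause of these changes was not tested. Carriers below 1 CPM are limited by depth.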

Other observations

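Transcript shares were read for carriers with at least 2 transcripts above 10% of the gene's TPM, as a description, since Salmon divides shared reads between similar transcripts. For Slc3a2 the main coding transcript of 1819 bases held 74.3%, 75.5% and 74.2% of the gene's TPM in tumour libraries, against 71.5%, 69.6% and 60.6% in sham libraries. For the cationic carrier Slc7a2 the coding transcript of 7626 bases held 57.6%, 51.7% and 51.3% in tumour libraries, against 57.4%, 64.8% and 48.5% in sham libraries, so the groups overlapped. For Slc38a6 the coding transcript of 3927 bases held 84.9%, 80.2% and 77.4% in tumour libraries, against 73.5%, 77.1% and 71.8% in sham libraries, where the groups did not overlap by a margin of less than 1 percentage point. For Slc1a4 the 2 listed transcripts exchanged shares within each group (the one of 3926 bases took 80.1%, 88.1% and 100% in tumour libraries, and 49.4%, 100% and 82.3% in sham libraries), so its transcripts could not be compared.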
